A study of Mus musculus with 6 samples.

Results

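The small subunit of the cytosolic ribosome is built from 1 ribosomal RNA and a set of small proteins, and it binds the mRNA, reads its codons and scans for the start site. The genes of 29 of these proteins are described here, among the 47728 genes of the deposited count table. They were chosen by name, as the rows of the table whose mouse symbol is Rpsa, Fau or one of the named Rps genes, and all 29 were found and passed the filter on low counts. The data are RNA sequencing of flash frozen cerebral cortex from FAD5x mice, a transgenic model of Alzheimer's disease, with 3 libraries, and from C57BL/6 mice as Control, with 3 libraries. In the model as generally described, human transgenes with familial disease mutations are driven by a neuronal Thy1 promoter. The age and sex of the animals are not given in the labels used here, nor whether each library came from its own animal, so each p-value reflects only how far these libraries scatter, and that scatter may be technical. The study is about the ribosome of this tissue, by its title, and the comparison asked which transcripts differ between FAD5x and Control cortex.

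Ribosomal protein genes are among the most evenly transcribed housekeeping genes, and their mRNAs begin with a tract of pyrimidines (the TOP motif) through which mTOR and LARP1 set their translation. In the cortex every cell type makes ribosomes, and neurons also place them in dendrites, close to synapses. Most ribosomal protein genes have many processed pseudogenes, intron-free copies scattered over the genome, which can take up reads of the parent gene.

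The libraries held 17363946 to 24137936 counts, and levels below are library-size-adjusted counts (CPM) after scaling with TMM factors (trimmed mean of M values). Where 3 values are listed for a group, they are its replicates 1, 2 and 3 in that order. FAD5x replicates 1 and 2 have related library names (AD_2 and AD_2_B). Setting their counts against each other gave a chi-square over degrees of freedom of 62.8, where the other FAD5x pairs gave 40.9 and 59.7, and each was used as its own sample. Xist had 3 counts in Control replicate 1, which had 3124 counts over 4 Y-linked genes. Elsewhere Xist had 10346 to 22631 counts and the Y-linked genes at most 9. By these counts Control replicate 1 had the pattern of a male and every other library that of a female. The groups were thus not balanced for sex, which was not a term in the test. General markers of neurons and astrocytes were present, and markers of cortical layers were not among them. The 8 neuronal markers summed to 5056 to 8287 CPM in FAD5x libraries and 5185 to 6263 CPM in Control libraries. The 6 astrocyte markers summed to 3400 to 5930 CPM in FAD5x libraries and 3776 to 5517 CPM in Control libraries. The choroid plexus markers summed to at most 5.39 CPM in any library.

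Transcripts of the small subunit were more abundant in FAD5x cortex. The 29 genes together held 0.459%, 0.404% and 0.573% of all counts in the FAD5x libraries, against 0.309%, 0.362% and 0.288% in the Control libraries, with Wilson 95% intervals of at most 0.00349 percentage points to either side, which cover counting error only. Their summed level was 4795 ± 513 CPM in FAD5x and 3186 ± 442 CPM in Control (SD, n = 3 each), a ratio of 1.51. No FAD5x library overlapped the Control range on either measure. In bulk tissue more cells of a type and more RNA per cell cannot be told apart.

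Of the 29 genes 10 rose in FAD5x, against 1.76% of the 17074 tested genes called higher by the same test (edgeR quasi-likelihood F-test, Benjamini-Hochberg adjusted p under 0.05). None fell by edgeR, against 1.39% of all tested genes (3.15% were called in either direction), and DESeq2 and limma-voom also called 0 lower. At an unadjusted p under 0.05 edgeR had 25 of the 29 genes higher and 0 lower, against 11.2% and 10.1% of all tested genes. The 10 that rose did so by 1.59- to 2.01-fold, with adjusted p from 0.0160 to 0.0400. The log2 fold change was above 0 for 28 of 29 genes, against 51.5% of all tested genes, and its median was 0.67 (quartiles 0.52 and 0.74), against 0.02 (quartiles -0.25 and 0.28) over all tested genes. In 24 of the 29 genes every FAD5x library lay above every Control library, against 14.1% of all tested genes, and in none did every FAD5x library lie below every Control library, against 13.2%.

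The number of calls depended on single libraries. Without FAD5x replicate 1, 2 or 3 the number of small-subunit genes called higher was 1, 19 and 6, and without Control replicate 1, 2 or 3 it was 0, 1 and 0. In the same order, the number called in either direction over all tested genes was 204, 989, 597, 98, 81 and 152. With all 6 libraries it was 537. At an unadjusted p under 0.05 these 6 fits had 24, 25, 24, 23, 25 and 22 of the genes higher, in the same order. In these 6 fits the log2 fold change stayed above 0 for 27 of the genes, all but Rps2 and Rps27l. With all 6 libraries DESeq2 called 20 of the small-subunit genes higher, and 1485 of all tested genes in either direction, against 537 by edgeR.

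**Figure D1:**
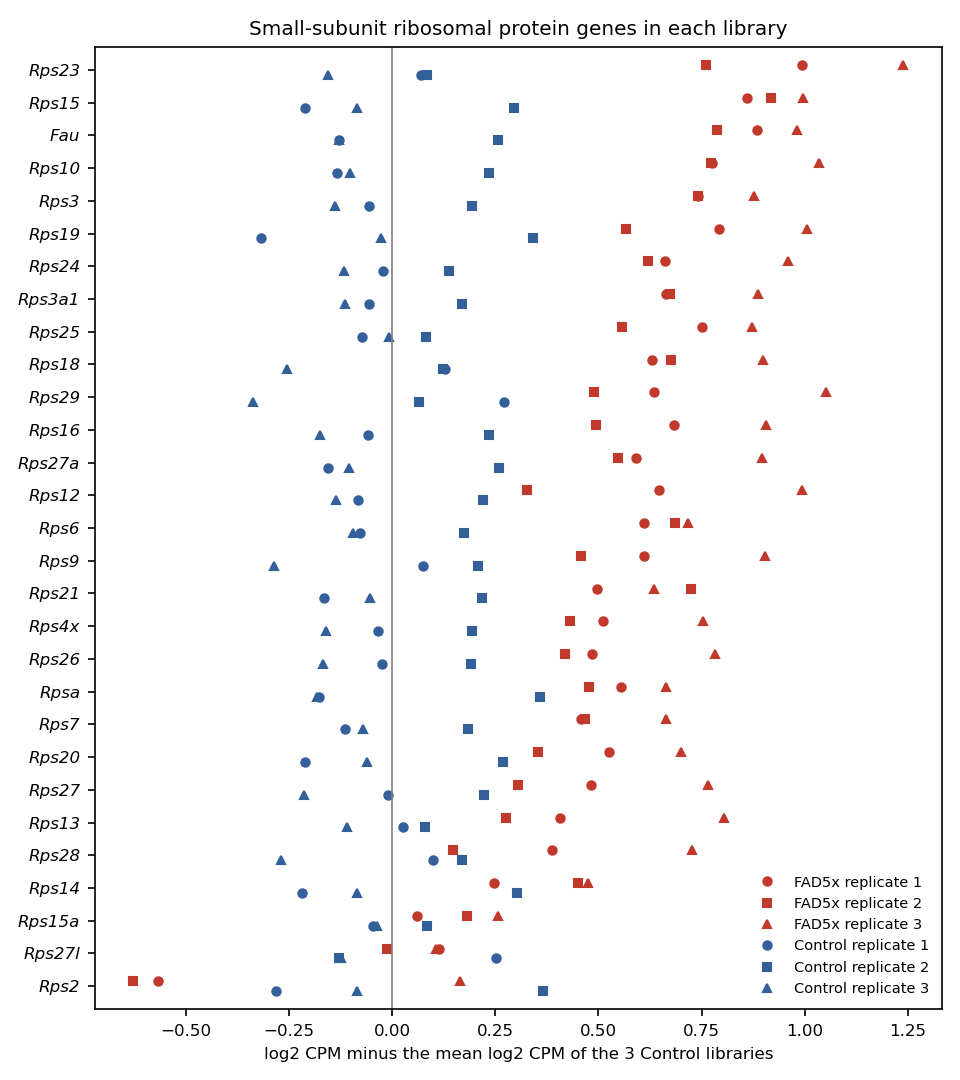
Level of each of the 29 small-subunit genes in each library, as log2 CPM minus the mean log2 CPM of the 3 Control libraries (horizontal axis), with FAD5x libraries in red, Control libraries in blue and a marker shape for each replicate. In 24 genes all red points lie to the right of all blue points, and Rps2, at the bottom, has FAD5x replicates 1 and 2 at -0.57 and -0.63.

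Within the groups the genes moved together. The median of the 29 log2 levels, set against the Control mean, came to 0.61, 0.49 and 0.87 in the FAD5x libraries, against -0.06, 0.19 and -0.12 in the Control libraries. The same median over all tested genes lay within 0.02 of 0 in every library. FAD5x replicate 3 was the highest FAD5x library for 27 of the 29 genes, FAD5x replicate 2 the lowest for 21, and Control replicate 2 the highest Control library for 26. The median SD of log2 levels within groups was 0.19 over the 29 genes and 0.26 over all tested genes. The genes were not matched on level, so these SDs are not a like-for-like comparison.

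Rps23, Rps3 and Rps15 encode proteins around the decoding site and the mRNA entry, and each of them rose. Rps2, also at the mRNA entry and described below, did not (log2 fold change -0.32 ± 0.25 SE, edgeR adjusted p = 0.515). Rps23, whose protein reaches into the decoding centre, stood at 137, 116 and 162 CPM in the FAD5x libraries, against 72.1, 72.9 and 61.7 CPM in the Control libraries. Rps23 rose 2.01-fold (log2 1.01 ± 0.15 SE, edgeR adjusted p = 0.0160), and the lowest FAD5x library was well above the highest Control library. Rps3, at the mRNA entry of the subunit's head and also described as a DNA repair factor, had 222, 222 and 244 CPM in the FAD5x libraries, against 128, 152 and 121 CPM in the Control libraries. It rose 1.72-fold (log2 0.78 ± 0.14, edgeR adjusted p = 0.0244), with FAD5x replicates 1 and 2 almost equal. Rps15, a head protein next to the decoding site, had 205, 214 and 225 CPM in the FAD5x libraries, against 97.7, 139 and 107 CPM in the Control libraries, a 1.88-fold rise (log2 0.91 ± 0.16, edgeR adjusted p = 0.0235) with the groups well apart.

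Both genes that are made as fusions with a ubiquitin-like part lay higher in FAD5x. Fau, whose product is cleaved into a ubiquitin-like peptide and the ribosomal protein eS30, had 163, 152 and 174 CPM in the FAD5x libraries, against 80.7, 105 and 80.6 CPM in the Control libraries. Fau rose 1.83-fold (log2 0.88 ± 0.15, edgeR adjusted p = 0.0220). Rps27a, whose product is cleaved into ubiquitin and the ribosomal protein eS31, had 152, 148 and 188 CPM in the FAD5x libraries, against 90.6, 121 and 94.0 CPM in the Control libraries. Its groups did not overlap, but the difference missed the threshold (log2 fold change 0.67 ± 0.16, edgeR adjusted p = 0.0644).

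Among genes of the head, Rps10, one of the proteins ubiquitinated when ribosomes collide, had 131, 131 and 157 CPM in the FAD5x libraries, against 69.9, 90.2 and 71.4 CPM in the Control libraries. Rps10 rose 1.81-fold (log2 0.86 ± 0.15, edgeR adjusted p = 0.0236). Rps25, which in yeast and human cells is needed for some forms of non-canonical initiation, had 168, 147 and 182 CPM in the FAD5x libraries, against 94.7, 105 and 99.1 CPM in the Control libraries, a 1.66-fold rise (log2 0.73 ± 0.13, edgeR adjusted p = 0.0261). Both groups were tight in Rps25 and did not overlap. Rps18, which takes part in a bridge to the large subunit, rose 1.66-fold (log2 0.73 ± 0.15, edgeR adjusted p = 0.0400), with 127 ± 13.0 CPM in FAD5x and 76.5 ± 11.1 CPM in Control (SD, n = 3 each). Rps12, Rps16, Rps19, Rps20 and Rps29 of the head did not pass the test, although the FAD5x and Control libraries of each were separate. Rps19, the gene most often mutated in human Diamond-Blackfan anaemia, had 118 ± 17.8 CPM in FAD5x and 68.9 ± 15.9 CPM in Control, a log2 fold change of 0.77 ± 0.19 (edgeR adjusted p = 0.0682). Rps28, a small protein at the mRNA exit, overlapped between groups, with 30.4, 25.7 and 38.5 CPM in the FAD5x libraries, against 24.9, 26.1 and 19.3 CPM in the Control libraries (log2 fold change 0.43 ± 0.19, edgeR adjusted p = 0.231).

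In the body and platform, Rps3a1 of the platform had 277, 279 and 323 CPM in the FAD5x libraries, against 168, 197 and 162 CPM in the Control libraries, and rose 1.67-fold (log2 0.74 ± 0.14, edgeR adjusted p = 0.0322). Rps24, a body protein mutated in some human families with Diamond-Blackfan anaemia, had 211, 205 and 259.7 CPM in the FAD5x libraries, against 132, 147 and 123.2 CPM in the Control libraries, and rose 1.68-fold (log2 0.75 ± 0.15, edgeR adjusted p = 0.0336). In both genes the groups lay apart by more than the spread within either group. Rps6, the protein phosphorylated by the S6 kinases downstream of mTOR, had 253 ± 9.48 CPM in FAD5x and 159 ± 17.04 CPM in Control (SD, n = 3 each), a 1.59-fold rise (log2 0.67 ± 0.13, edgeR adjusted p = 0.0369). Rpsa, also known as the laminin receptor, Rps4x, Rps7, Rps9, Rps13, Rps21, Rps26 and Rps27 had separate groups without passing the test. Over the 14 genes of the whole set in that position the fold ran from 1.43 to 1.71 and the adjusted p from 0.0562 to 0.138. Rps4x, the X-linked member, had 153 CPM in Control replicate 1, the library with 3 Xist counts, and 179 and 140.2 CPM in Control replicates 2 and 3.

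Rps14, Rps15a, Rps27l and Rps2 stood at the lower end with overlapping groups. Rps14, the platform gene of the human 5q- syndrome, had 222, 255 and 259.7 CPM in the FAD5x libraries, against 161, 231 and 176 CPM in the Control libraries (log2 fold change 0.38 ± 0.17, edgeR adjusted p = 0.239). Rps15a of the body had 117 ± 7.93 CPM in FAD5x and 104 ± 5.35 CPM in Control (SD, n = 3 each). Its log2 fold change of 0.17 had a 95% interval from -0.11 to 0.44, which lies below the median of the 29 genes.

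Rps27 and Rps27l are close paralogs, and Rps27l is induced by p53 in human cells. Rps27 had 108, 95.8 and 132 CPM in the FAD5x libraries, against 77.1, 90.6 and 66.9 CPM in the Control libraries (log2 fold change 0.52 ± 0.17, edgeR adjusted p = 0.130). Rps27l had 7.25, 6.64 and 7.21 CPM in the FAD5x libraries, against 7.98, 6.12 and 6.15 CPM in the Control libraries, so the groups were intermixed. Its log2 fold change of 0.06 had a 95% interval from -0.40 to 0.52. Of 12 tested p53 target genes, Phlda3, an inhibitor of Akt signalling, rose 1.78-fold (edgeR adjusted p = 0.0231) and Trp53inp1, a stress-induced p53 regulator, fell 1.95-fold (0.0435). These are 1 of 12 in each direction, against 1.76% higher and 1.39% lower of all tested genes. DESeq2 called 2 higher and 1 lower, and limma-voom 1 higher and 0 lower. Over the 17074 tested genes DESeq2 called 1485 and limma-voom 472 in either direction.

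Sequence windows from RefSeq (GRCm38.p6) were available for 25 of the 29 genes, from 250 bases before to 50 bases after the annotated start. They are shown for Rps23 and Fau, which rose, Rps6 at the median fold change of the 29, the paralogs Rps27 and Rps27l, and Rps2 at the low end, from 60 bases before the annotated start to 20 bases from it, so that the tract at the start can be compared. Capitals mark the longest run of C or T, beginning with C and at least 6 long, within 20 bases of the annotated start. Rps23 is at chr13:90923062-90923141 (+ strand), Fau at chr19:6057887-6057966 (+ strand) and Rps6 at chr4:86857348-86857427 (- strand). Rps27 is at chr3:90213629-90213708 (- strand), Rps27l at chr9:66946026-66946105 (+ strand) and Rps2 at chr17:24720003-24720082 (+ strand).
Rps23: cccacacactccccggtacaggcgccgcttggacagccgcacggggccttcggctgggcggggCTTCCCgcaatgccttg
Fau: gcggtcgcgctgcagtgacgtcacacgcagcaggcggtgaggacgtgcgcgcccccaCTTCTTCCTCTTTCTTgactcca
Rps6: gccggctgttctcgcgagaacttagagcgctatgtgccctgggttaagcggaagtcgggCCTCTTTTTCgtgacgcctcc
Rps27: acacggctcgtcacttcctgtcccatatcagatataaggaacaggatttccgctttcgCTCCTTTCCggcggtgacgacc
Rps27l: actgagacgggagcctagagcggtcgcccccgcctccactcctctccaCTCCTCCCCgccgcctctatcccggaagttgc
Rps2: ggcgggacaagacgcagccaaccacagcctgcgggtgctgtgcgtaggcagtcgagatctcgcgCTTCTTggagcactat

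Such a run was present in 17 of the 25 windows (68%), against 29.4% of the 27025 windows of all genes in the RefSeq table. In Rps23, Fau, Rps6, Rps27 and Rps2 it lay across or just after the annotated start, and in Rps27l it began 12 bases before it. The letters CCGGAAG, a core of ETS factor sites, were found on either strand in 11 of the 25 windows (44%), against 9.14% of all windows. The letters TCTCGCGA were found in 5 windows (20%), against 1.09%, and AAGATGGC, found in YY1 sites, in 3 (12%), against 2.87%. TATAAA was found in Rps2 and Rps28 alone of the 25 (8%), against 14.2% of all windows. The median log2 fold change was 0.67 in the 17 genes with a pyrimidine run and 0.63 in the 8 without, and 0.61 in the 11 genes with CCGGAAG and 0.68 in the 14 without. A match describes the letters of the window and is not evidence of binding.

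The genes also differed in abundance among themselves. Per kilobase of coding sequence, Control levels ran from 113 CPM for Rps28 to 418 CPM for Rps14 over 28 of the genes, a 3.69-fold range, and Rps27l stood apart at 26.8 CPM. In FAD5x the levels per kilobase of coding sequence were 152 CPM for Rps28, 542 CPM for Rps14 and 27.9 CPM for Rps27l. Rps14 had the highest level of all 29 per kilobase in Control, followed by Rps21 (343 CPM) and Rps24 (336 CPM). In FAD5x, Rps24 (565 CPM) and Rps14 were followed by Rps21 (524 CPM). Reads from untranslated regions are counted too, so such levels overstate genes with long untranslated regions. Reads that went to processed copies are not added back, and there are 7 such copies of Rps28 and 2 of Rps14. Across the 29 genes the log2 fold change had a Pearson correlation of -0.04 with coding length, 0.09 with coding GC content and 0.22 with mean level and Spearman values of 0.10, 0.15 and 0.09 in that order, given as a description of genes that share the same libraries.

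To ask which members depart from the common shift, the test was repeated with library factors that make the geometric mean of the 29 genes equal in all libraries. On this scale Rps2, whose protein sits at the mRNA entry of the body, was the single one of 29 called, with a log2 fold change of -0.93 ± 0.25 (edgeR adjusted p = 0.0114). On the same scale 36.8% of all tested genes were called, 35.8% lower and 1.08% higher, since the scale moves other genes down by construction. The other 28 genes ran from -0.55 for Rps27l to 0.40 for Rps23, with adjusted p of at least 0.115. Relative to the group and to the Control mean, Rps2 stood at 0.460, 0.464 and 0.647 in the FAD5x libraries, against 0.851, 1.12 and 1.03 in the Control libraries. The call ended without FAD5x replicate 1 (edgeR adjusted p = 0.0525) and held without any other single library.

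**Figure D2:**
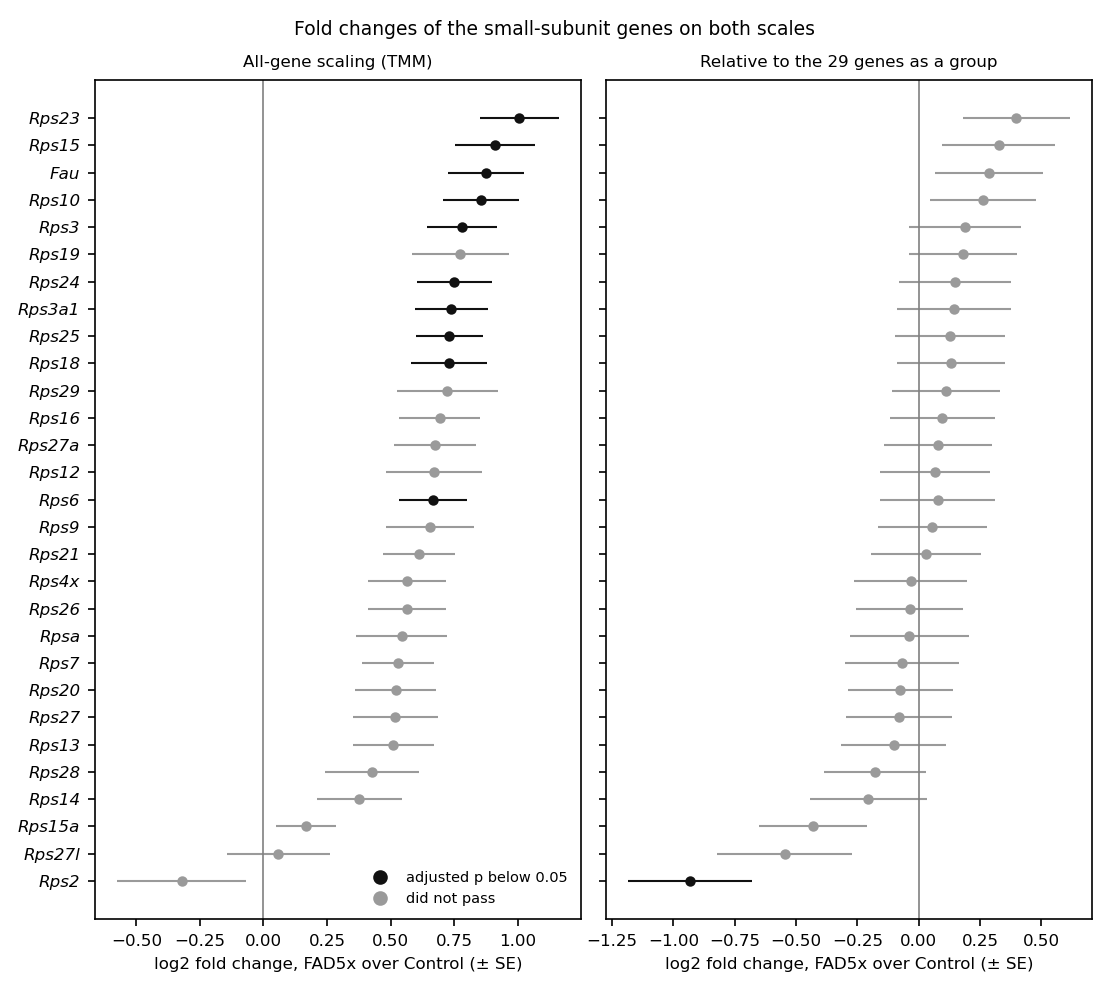
Log2 fold changes of the 29 genes, FAD5x over Control, with SE bars, on the TMM scale (left) and relative to the geometric mean of the 29 genes (right); black points passed the test. On the left 10 genes are called, from Rps6 at 0.67 to Rps23 at 1.01, and on the right Rps2 is called at -0.93.

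Rps2 is the gene whose counts depended most on its copies. On the TMM scale it had 163, 156 and 270.2 CPM in the FAD5x libraries, against 198, 311 and 227 CPM in the Control libraries (log2 fold change -0.32 ± 0.25, edgeR adjusted p = 0.515). The table holds 18 genes whose transcripts align to its coding sequence at 95% identity or more over at least 50% of it. These copies held 74.2%, 73.2% and 10.01% of the counts of Rps2 and copies in FAD5x replicates 1, 2 and 3, and 11.8%, 12.7% and 9.24% in the Control libraries, with Wilson 95% intervals of at most 0.991 percentage points to either side. FAD5x replicates 1 and 2, the libraries with related names, thus stood apart from FAD5x replicate 3, which lay within the Control range.

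The processed pseudogene Rps2-ps10 had 4966, 3865 and 152 counts in the FAD5x replicates, against 117, 185 and 110 in the Control replicates. Rps2-ps13 had 2820, 2100 and 78 counts in FAD5x and 86, 146 and 70 counts in Control. These copies were picked for naming once their counts were known, and neither passed the test (edgeR adjusted p = 0.130 and 0.155). Their levels were high in FAD5x replicates 1 and 2 alone.

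With the copies added, Rps2 stood at 630.3, 582 and 300.3 CPM in the FAD5x libraries, against 225, 356 and 250.4 CPM in the Control libraries. On that sum its log2 fold change was 0.86 ± 0.30 (edgeR adjusted p = 0.152), and relative to the group 0.28 ± 0.30 (adjusted p = 0.450), so both the low value and the call relative to the group ended. In FAD5x replicate 3 the sum lay inside the Control range. Whether reads that align to several places were counted once, more than once or not at all is not stated.

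**Figure D3:**
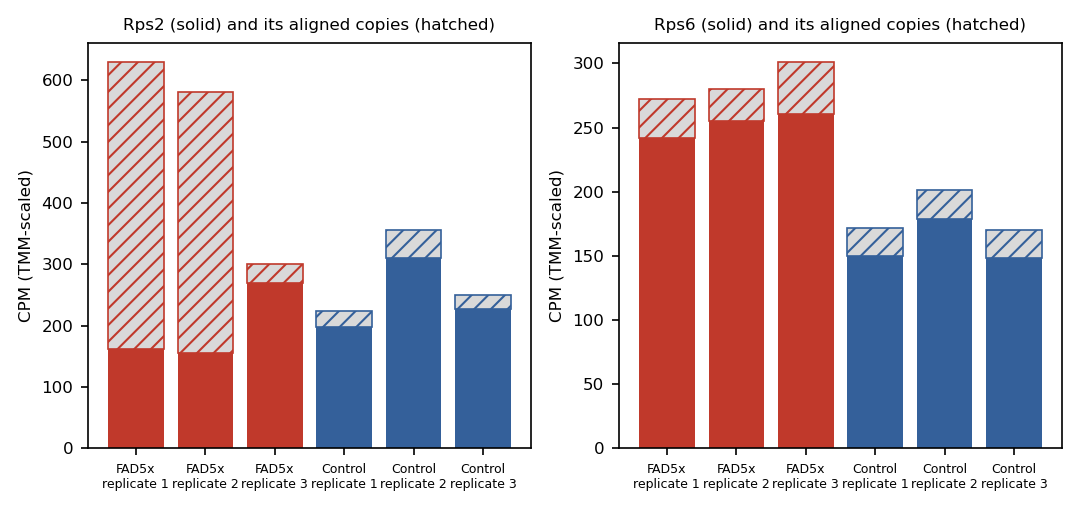
Level of Rps2 (left) and Rps6 (right), solid, with the summed level of their aligned copies stacked on top, hatched, in CPM for each library, FAD5x in red and Control in blue. The copies of Rps2 add 468 and 426 CPM in FAD5x replicates 1 and 2 and 23.1 to 45.1 CPM in the other libraries, while those of Rps6 add 21.5 to 40.7 CPM everywhere.

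For the other genes the copies held at most 13.5% of the counts of gene and copies in any library. Reads left uncounted because they align to several places would not show in such shares or with copies summed in. Of 29 genes 25 had at least 1 such copy in the table, 145 copies in all, and Rps3, Rps9, Rps21 and Rps27l had none. The copies of Rps6 held 8.94% to 13.5% of the summed counts over all libraries, and for the remaining 27 genes the share was under 6% in every library. The same 10 genes were called higher with aligned copies summed in, with a median log2 fold change of 0.67. Exons of Rps25, Rps18, Rps27a and Rps28 overlap a protein-coding gene on the opposite strand. Those of Rps10 share 189 bases with the antisense gene Gm15420, and those of Rps2 share 14 bases with the antisense gene Snhg9. Since the strand setting of the counting is not given, reads of such pairs cannot be told apart.

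Among the neighbours of these genes in the translation machinery, the large-subunit genes had a median of 0.64, with 22 of 49 risen and 1 fallen. Over all tested genes 1.76% were called higher and 1.39% lower. Of the 49 genes 48 lay above 0 (51.5% of all tested genes). Every FAD5x library lay above every Control library in 46 and below in 1 (14.1% and 13.2% of all tested genes). The other TOP mRNAs had a median of 0.35 and, beside the same 1.76%, 2 of 20 rose. These were Gas5, a snoRNA host transcript (1.60-fold, edgeR adjusted p = 0.0228), and Eef1g, an elongation factor subunit (1.54-fold, 0.0483). In this list 19 of 20 genes lay above 0 (51.5% of all tested genes). Every FAD5x library lay above every Control library in 14 and below in 1 (14.1% and 13.2% of all tested genes). Of 33 mitochondrial small-subunit genes, Mrps18a alone was called by edgeR (1.52-fold higher, adjusted p = 0.0392), a count near the 1.76% of all tested genes called higher. The median of that list was 0.25, with 31 of 33 genes above 0 (51.5% of all tested genes) and 15 with every FAD5x library above every Control library (14.1% of all tested genes). Of 30 initiation factor genes that act on the small subunit, Eif3g and Eif3k rose (1.61- and 1.47-fold, edgeR adjusted p = 0.0286 and 0.0356), with a list median of 0.11. These 2 of 30 stand beside the same 1.76%. Of the 30, 12 had every FAD5x library above every Control library and 3 below (14.1% and 13.2% of all tested genes). Eif3e, Eif3f, Eif3h and Eif4b are in this list and among the other TOP mRNAs.

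For genes that assemble or regulate the subunit the medians lay near or below 0. Of 25 assembly genes none was called by edgeR, DESeq2 or limma-voom, and edgeR called 3.15% of all tested genes. At an unadjusted edgeR p under 0.05, 3 were higher and 0 lower, against 11.2% and 10.1% of all tested genes. The median of the assembly genes was -0.01. The assembly gene with the highest mean level, Riok3, had a log2 fold change of -0.02 ± 0.11, and Rrp7a, the next, 0.50 ± 0.15 (edgeR adjusted p = 0.117). Of 18 genes of mTOR, S6 kinase and LARP1 regulation none was called by the same tools, beside the same 3.15%. At an unadjusted edgeR p under 0.05, 0 were higher and 1 lower, beside the same 11.2% and 10.1%. The median of these 18 genes was -0.17. In this list 4 of 18 genes had a log2 fold change above 0, against 51.5% of all tested genes. Every FAD5x library lay below every Control library in 7 of the 18, against 13.2%, and above in 0, against 14.1%. Akt1, which acts upstream of mTOR, and Pdpk1, its activating kinase, had the highest mean levels there, with log2 fold changes of 0.23 ± 0.14 and -0.13 ± 0.17. Of 14 genes that sense or clear stalled small subunits, Edf1, a collision sensor, rose 1.45-fold (edgeR adjusted p = 0.0435), and the median was 0.06. This 1 of 14 stands beside 1.76% of all tested genes, and limma-voom called 0 in this list. Differences between these lists and the small-subunit genes were not tested.

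**Figure D4:**
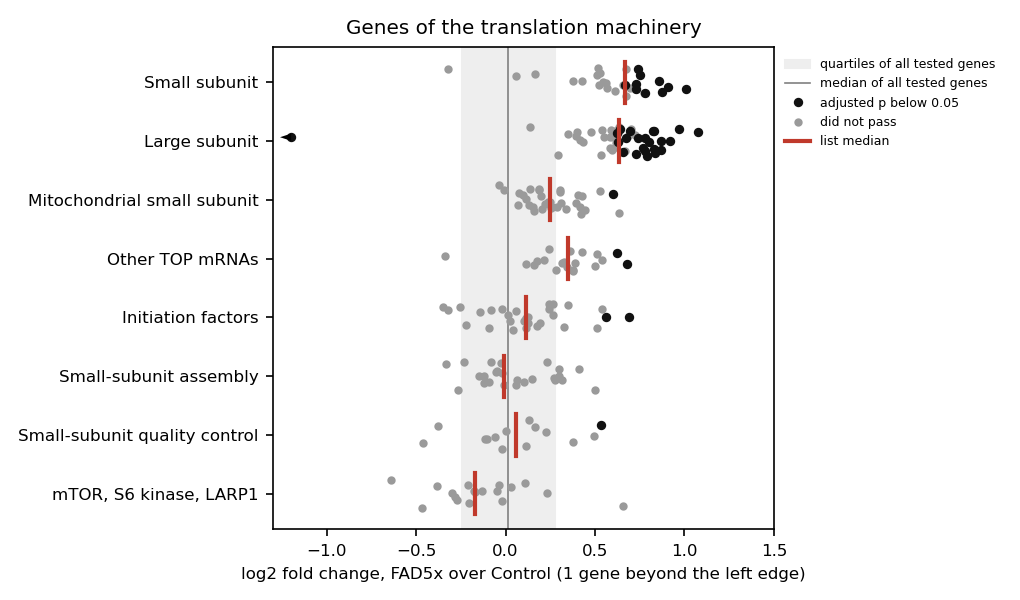
Log2 fold changes, FAD5x over Control, of the genes of 8 lists of the translation machinery (points, black where the adjusted p is under 0.05), with the list median in red and the median and quartiles of all tested genes in grey. The small- and large-subunit medians lie at 0.67 and 0.64, and the mTOR, S6 kinase and LARP1 list at -0.17; Rpl29, at -5.15, lies beyond the left edge.

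Some markers of other cell types also differed between the groups, by edgeR at an adjusted p under 0.05, where 1.76% of all tested genes were called higher and 1.39% lower. DESeq2, whose counts are given beside these, called 1485 of the 17074 tested genes in either direction, against 537 by edgeR. The 7 microglial markers summed to 352 to 762 CPM in FAD5x and 242 to 365 CPM in Control, sums that overlap. C1qa, a complement chain, rose (log2 2.24 ± 0.26, edgeR adjusted p = 0.00726), and DESeq2 called 2 of the 7 higher. At an unadjusted edgeR p under 0.05, 5 of the 7 were higher and 0 lower, against 11.2% and 10.1% of all tested genes. The 7 oligodendrocyte markers summed to 3851 to 7468 CPM in FAD5x and 2734 to 4003 CPM in Control, which also overlap, and Ermn and Mobp, both of myelinating cells, rose (DESeq2 called 3). The 6 astrocyte markers had none called by edgeR or limma-voom and 1 higher by DESeq2. Gfap, an astrocyte filament protein, had 1508, 129 and 914 CPM in the FAD5x libraries, against 193, 169 and 119 CPM in the Control libraries, so FAD5x replicate 2 lay within the Control range.

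Markers of mural cells, fibroblasts and oligodendrocyte precursors had lower sums in FAD5x, without overlap. The 3 mural markers summed to 98.1 to 133 CPM in FAD5x and 147 to 169.96 CPM in Control, and Rgs5 (mean 107 CPM) made up most of it. Of the 3, Rgs5 (log2 -0.63 ± 0.15) and Acta2 (-1.15 ± 0.34, mean 4.28 CPM) were separate between groups. Pdgfrb (-0.08 ± 0.16, mean 24.9 CPM) overlapped. None of the 3 was called by edgeR or limma-voom, and 2 were called lower by DESeq2. The 4 fibroblast markers summed to 7.46 to 25.2 CPM in FAD5x and 50.5 to 173 CPM in Control, and Col3a1, a collagen, fell (DESeq2 called 3 lower). The 3 markers of oligodendrocyte precursors summed to 74.3 to 145 CPM in FAD5x and 154 to 210.2 CPM in Control. Among them Gpr17, a receptor of these cells, fell (log2 -1.71 ± 0.25, edgeR adjusted p = 0.0147), while Pdgfra (-0.28 ± 0.27) and Cspg4 (-0.01 ± 0.19) overlapped between groups. No marker was at 0 over all libraries. The part of these cell types in the levels of the small-subunit genes was not tested.

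**Figure D5:**
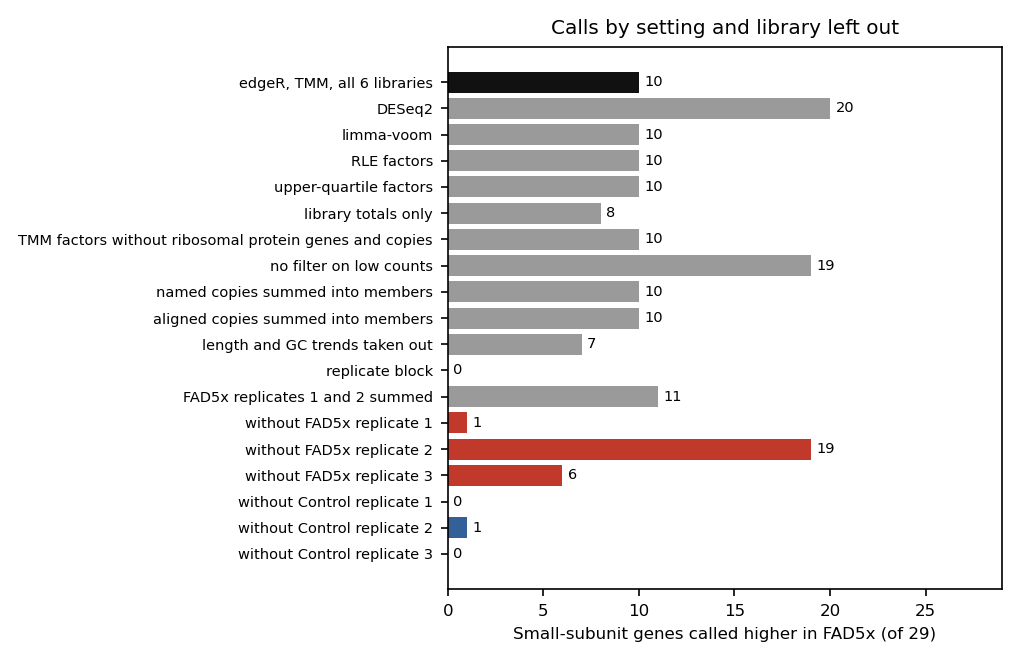
Number of the 29 small-subunit genes called higher in FAD5x (horizontal axis) with all 6 libraries (black), under other settings (grey) and without single FAD5x (red) or Control (blue) libraries. The number runs from 0 without Control replicate 1 or 3, and with the replicate block, to 20 with DESeq2.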

How the data were processed

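RNA sequencing counts of 3 FAD5x and 3 Control cortex libraries were used. RNA was prepared with TRIzol followed by a column kit, per the labels' protocols; the library preparation and strandedness are not given in the sources used here. STAR 2.7.11b, edgeR 3.38.4, limma, featureCounts and cutadapt were used on build GRCm39, per the submitters' processing notes. The authors deposited raw counts per Ensembl gene for each library; 1 line with a cell that was not a number was left out. Columns were assigned to samples through the labels' library names, and symbols came from GENCODE M21 by identifier (47223 matched, 505 not).

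Genes were filtered with filterByExpr, scaled by TMM and tested with edgeR 4.0.16 (R 4.3.3; quasi-likelihood F-test, robust prior, group as the only term, two-sided, 17074 genes, all adjusted together). The steps were tested on simulated data. Alternatives used limma 3.58.1 (voom), DESeq2 1.42.0, other scalings and filters, summed copies, length and GC trends, a replicate block and libraries left out. Copies were sought with BLAST. The members and lists were chosen with earlier results of these data known. All 29 members are named, with library values for the called genes of smallest p, the extremes and the paralogs and fusion genes. Of other lists, up to 3 called genes, or else the 2 most abundant, were to be named; the large-subunit genes are given as counts. Some genes of the other lists are not reported here.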

Additional observations from a re-analysis of the deposited data

How the results depend on the processing

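Under 18 alternatives the log2 fold change stayed above 0 for 27 of the 29 genes, all but Rps2 and Rps27l, and the median of the 29 ran from 0.50 (length and GC trends taken out) to 0.76 (without Control replicate 2). The number of small-subunit genes called higher was 20 with DESeq2, 19 with no filter on low counts and 0 to 19 when single libraries were left out; the number of all genes called was 1485, 1063 and 81 to 989. The same 10 genes were called with limma-voom, RLE, upper-quartile or ribosome-free TMM factors and with copies summed, and 7 of them with length and GC trends taken out. Replicate numbers did not pair the libraries (correlations of deviations -0.04, -0.09 and -0.28 for numbers 1, 2 and 3), and with the replicate block edgeR called 0 small-subunit genes, with 24 higher at an unadjusted p under 0.05, and 72 genes in all. With FAD5x replicates 1 and 2 summed, 11 were called. Rps2 turned to 0.67 with named copies summed and 0.86 with aligned copies summed, an alternative added after the data were seen, and relative to the group to 0.084 and 0.28. The number called relative to the group was then 0 and 0 (edgeR; DESeq2 and limma-voom, run without summed copies, called 1 each), and 0 to 1 without single libraries. Rps27l turned to -0.046 with length and GC trends taken out, and ran from -0.0086 to 0.20 without single libraries (-0.0013 without Control replicate 3). With Rps2, Rps15a and Rps27l left out of that scale, also an added choice, Rps2 was again the 1 called. The smallest difference that 3 libraries a group could show was not computed.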
